A study of Homo sapiens with 8 samples.

Results

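The experiment set 2 arrays of cells labelled SKBrM3 with doxycycline against 2 arrays of the same cells without it, 4 of the 8 Affymetrix arrays of the study. All 4 arrays were chosen by their titles, and every probe set that names 1 gene entered the description: 45253 of 49386, standing for 18239 genes. SKBrM3 is, by its name, a brain-metastatic derivative of the breast cancer line SK-BR-3. Per the labels, the cells of both groups hold a hairpin construct that targets MET and is switched on by doxycycline (Dox/shMet), and they were grown in DMEM with 10% FBS. The control group received no doxycycline, and the treated group received 100 ng of it for 48 h, with no volume stated. The labels name no second hairpin and no hairpin-free group given doxycycline, so effects of the drug, of MET loss and of the hairpin on other transcripts cannot be told apart. Whether replicates were separate cultures is not stated, and the p-values then reflect only how far these arrays differ, possibly for technical reasons.

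MET encodes the receptor tyrosine kinase for hepatocyte growth factor. Once bound by its ligand, it recruits adaptors such as GAB1 and GRB2 and signals through RAS and ERK, PI3K and AKT, and STAT3, with effects on growth, survival and motility. NF-kB is a family of transcription factors held inactive by inhibitor proteins such as IkB alpha. Once released, it drives chemokines that attract neutrophils, and it also drives its own inhibitors, which makes them a common readout of its activity.

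The marker genes went mostly against the name of the line. SK-BR-3 is a luminal line with amplified ERBB2, yet ERBB2 (log2 mean 6.86) was near its level in the study's 231BrM arrays (6.82), and its 17q12 neighbour GRB7 had 5.01. The other 17q12 neighbours were STARD3 (8.94, against 8.77 in 231BrM), MIEN1 (8.94 against 8.23) and PGAP3 (6.34 against 6.13). Of the luminal genes, KRT18 (10.56), KRT8 (8.27), CLDN4 (7.63), KRT19 (6.77) and SPDEF (6.45) had signal, with KRT18, KRT8, KRT19 and SPDEF higher still in 231BrM. FOXA1 went with the name, at 6.11 here and 4.81 in 231BrM. KRT7 (6.06 against 8.12), CLDN7 (5.80 against 6.60) and EPCAM (6.20 against 6.38) were higher in 231BrM. ERBB3 (3.94), CLDN3 (3.84) and ESRP1 (3.82) lay under the level used as a filter here, 4.42. All 17 MDA-MB-231 markers measured lay above it, among them VIM (12.74), the mesenchymal intermediate filament, AXL (11.46) and CD44 (11.38). Their median level was 10.45, against 10.41 in 231BrM. That of the 24 SK-BR-3 markers was 5.93, against 5.63 in 231BrM, with 18 above the filter level here. The cells are therefore called the SKBrM3-labelled cells throughout. Of 21 markers of fibroblasts, endothelium, leukocytes and astrocytes, 9 were above the filter level, led by CD68 (8.29), while PTPRC, AQP4 and LUM lay between 3.03 and 3.41. Their summed level was 92.7 to 93.6 on the control arrays and 93.0 to 93.3 on the doxycycline arrays. The summed level of the SK-BR-3 markers was 143.0 to 143.7 without and 141.0 to 141.7 with doxycycline, and that of the MDA-MB-231 markers 173.0 to 173.3 and 172.5 to 172.9.

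The 4 arrays were close to one another. Replicates correlated at 0.997 in both groups, over probe sets, and their difference had an SD of 0.145 log2 units in each group. A measure of RNA integrity, the excess of 3' over 5' signal in the actin controls, was 0.52 to 0.58 on all 4 arrays. For GAPDH it was -0.01 and -0.02 on the control arrays and 0.09 and 0.08 on the doxycycline arrays. This small difference moves with the treatment, and its part in the results was not tested.

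MET itself was 11.3-fold lower with doxycycline. Its probe set of highest signal read 9.25 and 9.20 on the control arrays and 5.76 and 5.71 on the doxycycline arrays, a log2 change of -3.50 (SE 0.0721, limma adjusted p = 1.6e-05, n = 2 per group). The groups were far apart, and replicates within each were nearly the same. The other 3 tested MET probe sets gave -2.82, -2.46 and -1.67, all called lower, so the size of the fall depended on the probe set. The one at -2.46 went from 6.04 and 6.38 to 3.74 and 3.75, under the filter level, where a fold is limited by low signal. It passed the filter through its control arrays alone, so it had to differ, and its change is a description.

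The response around this fall was broad in number and mostly small in size. A gene was taken as called where limma gave it a Benjamini-Hochberg adjusted p under 0.05 over all 27782 probe sets tested, and its value was that of its tested probe set with the highest mean. Of 12624 genes tested, 1035 were called (8.2%), 501 higher (3.97%) and 534 lower (4.23%). At the unadjusted threshold of 0.05, 1898 were higher and 1479 lower. By probe set, 2523 were called (9.08%), 983 higher (3.54%) and 1540 lower (5.54%). Most large changes were falls: 36 of the called genes fell by over 2-fold and 1, BIK, rose by over 2-fold. Past 1.5-fold there were 158 lower and 47 higher, and past 3-fold 9 lower and 0 higher. The median change was -0.46 among called lower genes, 0.41 among called higher genes and 0.02 over all genes tested. Genes whose doxycycline arrays both lay beyond both control arrays were 7555 of 12624 (59.8%), so a lack of overlap alone says little with 2 arrays per group. A total of 213 genes passed the filter through 1 group only, with both arrays of the other under it; without them 486 of 12411 were called higher (3.92%) and 504 lower (4.06%).

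Most calls needed all 4 arrays. With 1 array left out, the group with a single array takes its spread from the other group. Such fits called 291 genes without control replicate 1, 173 without control replicate 2, 346 without doxycycline replicate 1 and 566 without doxycycline replicate 2. A total of 134 genes were called in the full fit and in all 4 of these, 118 lower and 16 higher. They include 36 of the 37 called genes past 2-fold. The exception was NDRG1, which lost its call without doxycycline replicate 1 (limma adjusted p = 0.0512).

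**Figure D1:**
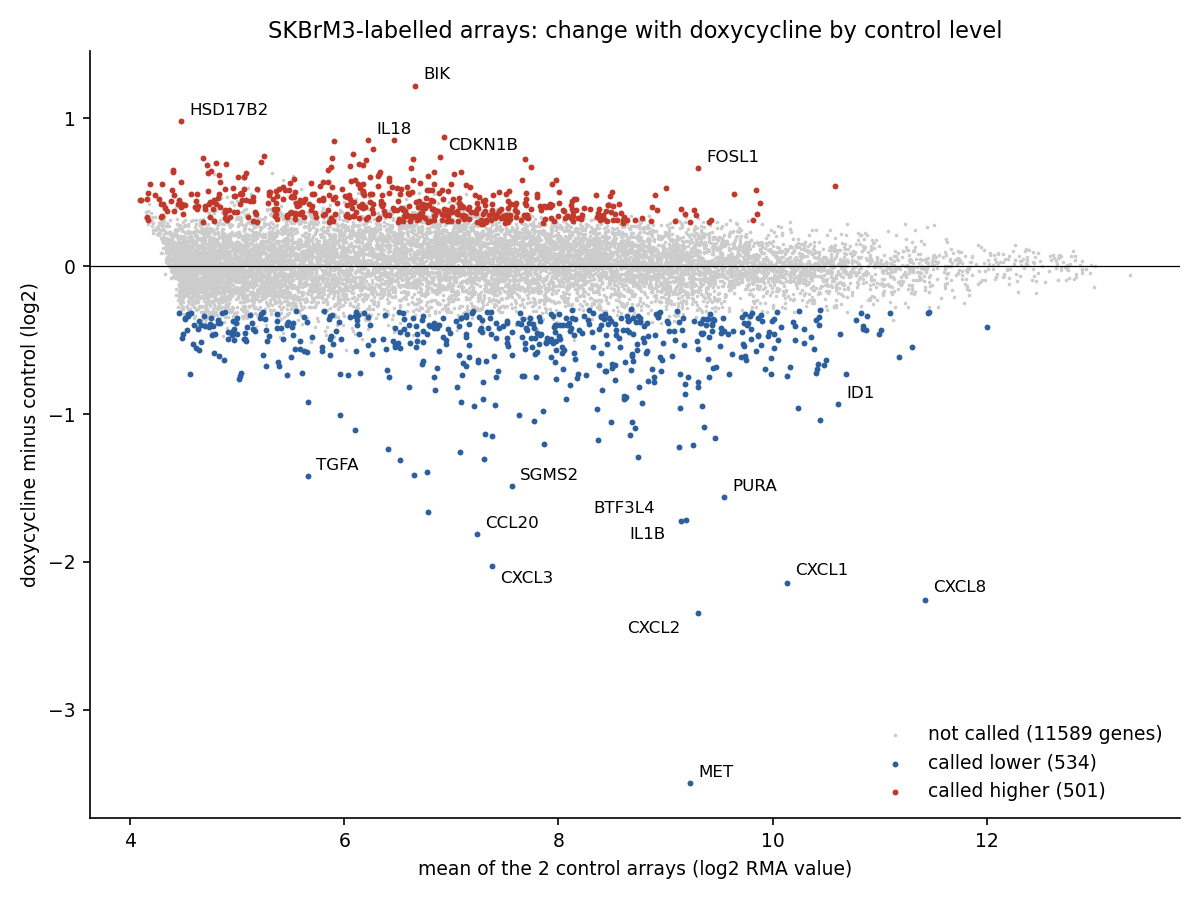
Each point is 1 of 12624 genes; the x axis is the mean of the 2 control arrays (log2 RMA value) and the y axis the change with doxycycline (log2), in grey for genes not called, blue for called lower (534) and red for called higher (501). MET at -3.50 and the CXC chemokines near and below -2 lie apart from the other genes, and only BIK rises past 1.

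Neutrophil-attracting CXC chemokines showed the 4 largest falls after MET. CXCL8, which encodes interleukin-8 and had the highest level among them, read 11.45 and 11.39 without doxycycline and 9.10 and 9.22 with it, a 4.79-fold fall (log2 -2.26, SE 0.0780, limma adjusted p = 0.000139). CXCL2 read 9.23 and 9.37 against 6.97 and 6.94, a 5.07-fold fall (-2.34, SE 0.0788, limma adjusted p = 0.000139). CXCL1 read 10.11 and 10.15 against 7.90 and 8.07 (-2.15, SE 0.0837, limma adjusted p = 0.000173). In all 3, each doxycycline array lay more than 1 log2 unit under each control array. CXCL3 read 7.46 and 7.30 against 5.20 and 5.50 (-2.03, SE 0.114, limma adjusted p = 0.000684). The other tested probe sets of CXCL8 gave -2.98 and -2.76 and that of CXCL2 -2.42. The second probe set of CXCL1 gave -0.78, from 9.15 and 9.13 to 8.40 and 8.33. CXCL1, CXCL2 and CXCL3 are close paralogs, and whether probes of one also bind transcripts of another is uncertain here.

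These genes lie side by side on chromosome 4 with the EGF receptor ligand EREG. Of the 13 genes of this cluster on the array, 5 passed the filter (CXCL8, CXCL1, CXCL3, CXCL2 and EREG), all 5 were called lower, and all kept the call with any 1 array left out. The other 8, CXCL6, PF4V1, PF4, PPBP, CXCL5, MTHFD2L, EPGN and BTC, reached at most 4.41 on any of the 4 arrays and were not tested. The filter thus kept the members with signal. Over all genes tested, 4.23% were called lower. The 4 chemokines were already seen as the largest falls after MET, so the count of 5 is a description.

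The promoters of these 4 chemokines carry the same 9-base NF-kB-type site, GGAATTTCC. Those of the next largest cytokine falls, CCL20 and IL1B, do not carry these exact letters. Other forms of NF-kB site were not searched, so CCL20 and IL1B may hold one. They are shown here because the genes were all called lower. In the 130 bases before each start site (RefSeq, GRCh38.p14, 5′ to 3′ on the gene's strand, the site in capitals) the sequences are as follows. CXCL8 is at chr4:73740439-73740568 (plus strand), CXCL1 at chr4:73869263-73869392 (plus), CXCL3 at chr4:74038690-74038819 (minus), CXCL2 at chr4:74099196-74099325 (minus), and NFKBIA, which encodes IkB alpha, at chr14:35404750-35404879 (minus). CCL20 is at chr2:227813712-227813841 (plus) and IL1B at chr2:112836780-112836909 (minus).
CXCL8: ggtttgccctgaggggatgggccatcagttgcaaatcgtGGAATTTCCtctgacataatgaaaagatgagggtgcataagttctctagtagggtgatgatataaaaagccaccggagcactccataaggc
CXCL1: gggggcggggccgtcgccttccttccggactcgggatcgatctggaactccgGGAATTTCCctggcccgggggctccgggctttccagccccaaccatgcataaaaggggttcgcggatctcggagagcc
CXCL2: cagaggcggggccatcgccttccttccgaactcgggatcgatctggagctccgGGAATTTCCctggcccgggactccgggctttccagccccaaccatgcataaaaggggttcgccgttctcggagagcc
CXCL3: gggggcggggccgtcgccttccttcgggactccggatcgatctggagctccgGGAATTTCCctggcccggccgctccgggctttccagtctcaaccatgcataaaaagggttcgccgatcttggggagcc
NFKBIA: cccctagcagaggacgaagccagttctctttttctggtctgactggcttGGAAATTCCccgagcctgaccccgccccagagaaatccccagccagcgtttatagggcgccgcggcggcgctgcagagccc
CCL20: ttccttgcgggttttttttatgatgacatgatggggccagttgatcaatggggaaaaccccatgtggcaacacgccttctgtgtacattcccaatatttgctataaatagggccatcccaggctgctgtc
IL1B: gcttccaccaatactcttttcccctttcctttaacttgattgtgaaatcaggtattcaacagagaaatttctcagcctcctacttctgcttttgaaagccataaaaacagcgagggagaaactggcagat

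The site begins 91 bases before the start of CXCL8, 78 before those of CXCL1 and CXCL3 and 77 before that of CXCL2. NFKBIA carries it on the opposite strand, from 81 bases before its start. The windows of CXCL1 and CXCL3 are identical at 119 of 130 positions (91.5%). With a shift of 1 base and no gaps, CXCL1 and CXCL2 are identical at 88 of 129 (68.2%) and CXCL2 and CXCL3 at 83 (64.3%). For CXCL1 and CXCL8 it is 40 of 130 (30.8%). Because no gap was allowed, an extra or missing base puts later bases out of step, so the shares with CXCL2 understate the likeness. The matches in CXCL1, CXCL2 and CXCL3 are thus not independent of one another. Searched on both strands over the 250 bases before each start, GGAATTTCC was found in 145 of 35116 promoters (0.413%). It was in 55 of the 10293 tested genes with an entry (0.534%), 12 of 428 called lower (2.8%), 4 of 6 called lower cytokines with an entry, and 2 of 405 called higher (0.494%), PLLP and PLPP6. Besides the 4 chemokines and NFKBIA, the called lower genes with it were ICAM1, NFKB1, NFKBIZ, MAPK6, POLR1F, SEC24A and UBL7. A match is a description of these letters and not a measured binding site. The motif was chosen with earlier results of these data known, so its share among called lower genes is not independent evidence. Of the NF-kB list, NFKBIB (log2 change 0.06) and REL (-0.03) carry it too and were not called.

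Among the other cytokines, CCL20, the ligand of CCR6, read 7.05 and 7.43 without and 5.25 and 5.60 with doxycycline, a 3.52-fold fall (-1.81, SE 0.155, limma adjusted p = 0.00271). IL1B, which encodes interleukin-1 beta, read 9.04 and 9.34 against 7.40 and 7.54 (-1.72, SE 0.114, limma adjusted p = 0.00115). CCL2, a monocyte attractant, read 6.78 and 6.77 against 5.28 and 5.50 (-1.39, SE 0.0913, limma adjusted p = 0.00112). The groups did not overlap in any of the 3, beside 59.8% of all genes with no overlap. Replicates lay within 0.4 log2 units of each other. CSF3, the granulocyte growth factor, fell by 0.74 and lost its call without control replicate 2 (limma adjusted p = 0.0547), and LIF fell by 0.46. IL18, an IL-1 family cytokine, went the other way, from 6.31 and 6.14 to 7.02 and 7.14 (0.85, SE 0.0900, limma adjusted p = 0.00474). Of the 20 cytokines and chemokines tested, 9 fell, 1 rose and 10 were not called (50% called, beside 8.2% of all genes). Their median was -0.22. Those not called included IL6 (-0.18), TNF (-0.11), IL1A (-0.08) and CXCL16 (0.00). Between 7 and 9 were called lower with 1 array left out, and 8 of the 10 calls held in every such fit.

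Of 23 tested NF-kB target and feedback genes 13 fell and 0 rose (56.5%, beside 8.2% of all genes), with a median of -0.40. BCL2A1, an anti-apoptotic BCL2 relative, read 8.76 and 8.73 without and 7.47 and 7.44 with doxycycline, a 2.44-fold fall (-1.29, SE 0.0704, limma adjusted p = 0.000617). NFKBIA, the inhibitor that holds NF-kB in the cytoplasm, read 9.30 and 9.31 against 8.48 and 8.49 (-0.82, SE 0.0695, limma adjusted p = 0.0027). TNFAIP3, which encodes the ubiquitin-editing feedback inhibitor A20, read 7.94 and 7.92 against 7.31 and 7.33 (-0.61). For each of them the replicates differed by less than 0.05 log2 units and the groups by 0.6 or more. BIRC2, which encodes the ubiquitin ligase cIAP1, fell by 0.61 from 11.22 and 11.14, and its other 4 tested probe sets gave -1.01 to -0.78. NFKBIZ (-0.67), the RNase gene ZC3H12A (-0.54), TRAF1 (-0.51), TNIP1 (-0.49), the adhesion receptor ICAM1 (-0.48), NFKB1 (-0.35) and NFKBIE (-0.34) were also called lower, with TNFAIP2 (-0.41) and CD83 (-0.40). The 10 not called included the subunits RELA (-0.03), REL (-0.03), NFKB2 (0.03) and RELB (-0.19), and the targets BCL3 (-0.42, limma adjusted p = 0.0518), SOD2 (-0.21) and CYLD (-0.15). BCL2A1, NFKBIA, TNFAIP3 and BIRC2 kept their calls with any 1 array left out, and the number called was 5, 4, 8 and 8 without control 1, control 2, doxycycline 1 and doxycycline 2.

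**Figure D2:**
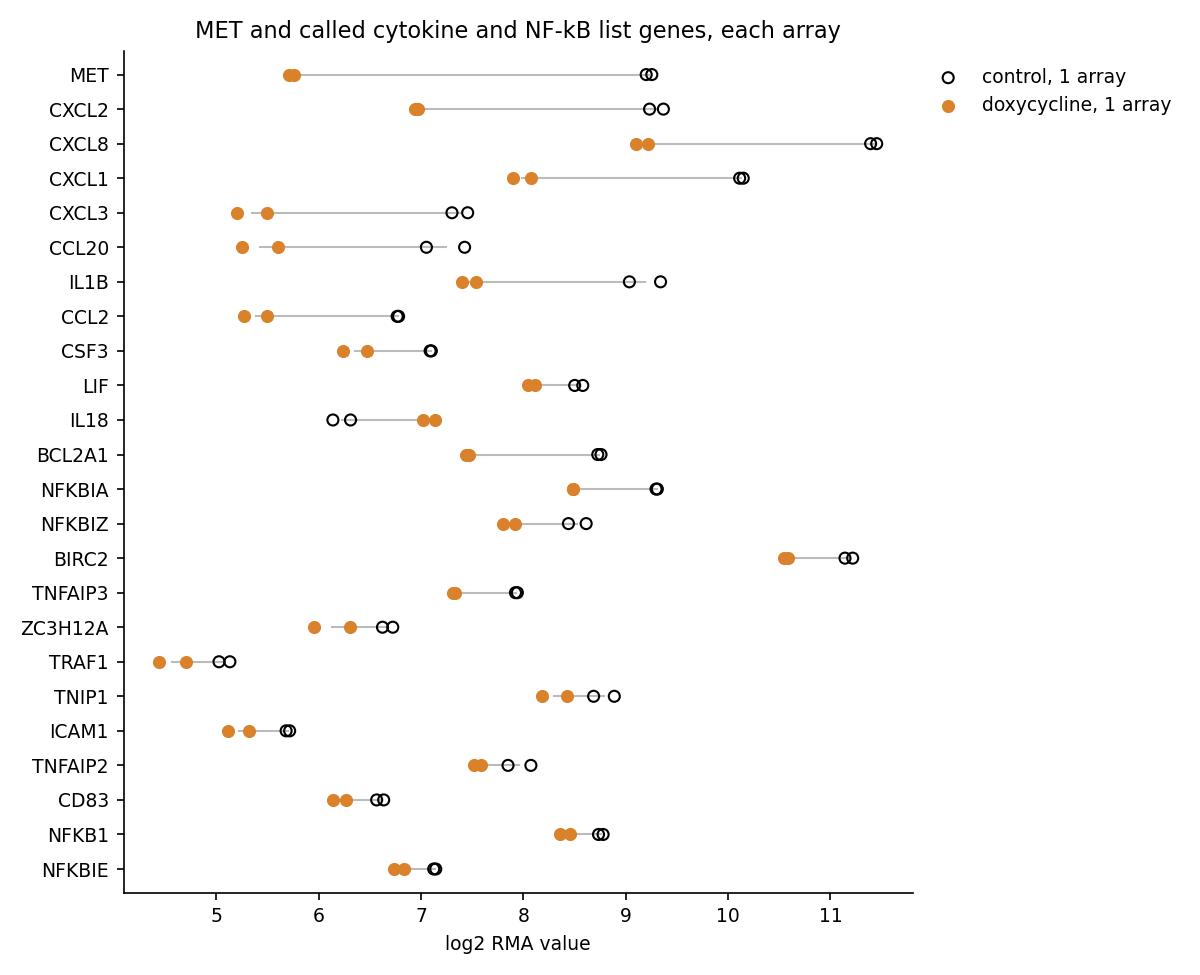
Each circle is 1 array (x axis, log2 RMA value), open for control and filled for doxycycline, with a grey line joining the group means, for MET and the called members of the cytokine and NF-kB lists. The filled circles lie left of the open ones in every row except IL18, and the gap is widest for MET.

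Ligands of EGF family receptors were among the called genes. TGFA, a ligand of EGFR, read 5.69 and 5.63 without and 4.16 and 4.32 with doxycycline. It passed the filter through its control arrays alone, so it had to differ, and its change (-1.42) is a description. HBEGF, which binds EGFR and ERBB4, read 10.03 and 9.93 against 9.23 and 9.27 (-0.73, SE 0.0751, limma adjusted p = 0.00451). EREG, which encodes epiregulin, read 8.59 and 8.41 against 7.81 and 7.86 (-0.66, SE 0.0849, limma adjusted p = 0.00879). No doxycycline array of HBEGF or EREG reached a control array, beside 59.8% of all genes with no overlap. The calls of HBEGF and EREG held with any 1 array left out. ERRFI1, an inhibitor of the EGF receptor, fell by 0.68 and lost its call without control replicate 2 (limma adjusted p = 0.0618), and NRG1, a ligand of ERBB3 and ERBB4, fell by 0.36. Of the list's 7 tested members 5 were called lower, with a median of -0.66, and without TGFA 4 of 6, with a median of -0.51. Over all genes tested 4.23% were called lower, and the receptors EGFR (-0.23) and ERBB2 (0.30) were not called. Between 3 and 4 were called lower with 1 array left out.

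Of 22 tested members of the list of MET, its relative RON and their partners, MET and PTPN11 fell and GAB1 and SRC rose (18.2%, beside 8.2% of all genes), and the list's median was 0.03. PTPN11, which encodes the phosphatase SHP2, went from 9.95 and 9.98 to 9.51 and 9.52 (-0.45, limma adjusted p = 0.0158). GAB1, the docking adaptor of MET, went from 5.55 and 5.44 to 5.90 and 5.80 (0.36, limma adjusted p = 0.0416), and SRC rose by 0.36. GAB1 and SRC lost their calls whichever array was left out, with adjusted p-values up to 0.170 and 0.168, and PTPN11 without either control array or doxycycline replicate 1 (up to 0.0852). The related receptor MST1R (-0.23), the activating protease ST14 (0.02) and the inhibitors SPINT1 (0.16) and SPINT2 (0.04) were not called. Of 22 other receptor tyrosine kinases tested, KDR alone was called (0.39). It read 4.36 and 4.29 without and 4.75 and 4.69 with doxycycline, so it passed the filter through the doxycycline arrays alone, and it lost the call in each fit without 1 array (up to 0.124).

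Of 29 tested members of the ERK feedback and immediate early list, 4 fell and 1 rose (17.2%, beside 8.2% of all genes), with a median of -0.11. At the unadjusted threshold 9 were lower. Those not called include the phosphatases DUSP6 (-0.12) and DUSP4 (-0.14), the inhibitors SPRY2 (0.27) and SPRY4 (-0.06) and the ETS factors ETV4 (0.26) and ETV5 (0.19). EGR1, an early transcription factor, went from 7.34 and 7.25 to 6.35 and 6.67 (-0.78, limma adjusted p = 0.0135), and KLF10 fell by 0.65, IER3 by 0.55 and PHLDA1 by 0.32. FOSL1, which encodes the AP-1 subunit FRA1, rose from 9.27 and 9.34 to 10.11 and 9.83 (0.66, limma adjusted p = 0.0154), with 3 of its 5 other tested probe sets called higher. No call of this list held in all fits with 1 array left out. FOSL1 and EGR1 lost theirs without either control array (adjusted p up to 0.0717 and 0.0618), KLF10 without control replicate 1 (0.0585), and IER3 without either control array or doxycycline replicate 1 (up to 0.0786).

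Part of the TGF-beta and BMP pathway fell. TGFBR1, the type I TGF-beta receptor, read 9.26 on both control arrays and 7.95 and 8.16 with doxycycline, a 2.31-fold fall (-1.21, SE 0.0894, limma adjusted p = 0.00161). INHBA, the activin beta A subunit, read 8.43 and 8.32 against 7.71 and 7.71 (-0.67, SE 0.0753, limma adjusted p = 0.00596). ID1, a helix-loop-helix inhibitor induced by BMP, read 10.65 and 10.57 against 9.65 and 9.70 (-0.93, SE 0.0735, limma adjusted p = 0.00211). The groups of these 3 genes were separated by at least 0.6 log2 units, and their calls held with any 1 array left out. The relatives ID2 (-0.64) and ID3 (-0.59), the inhibitory SMAD7 (-0.49) and TGFBI (-0.53) were called lower too; ID2 passed the filter through its control arrays alone. TGFBI lost its call without either control array (adjusted p up to 0.0620). Of 19 tested members 7 were called lower and 0 higher (36.8%, beside 8.2% of all genes), with a median of -0.09. Without ID2, 6 of 18 were called lower. The ligands TGFB1 (0.15), TGFB2 (0.03), BMP2 (-0.19) and BMP4 (0.33), the type II receptor TGFBR2 (0.11) and CCN2 (-0.09) were not called. The number called lower was 3 without either control array, 5 without doxycycline replicate 1 and 7 without doxycycline replicate 2.

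Of 19 tested genes of cholesterol synthesis and uptake 9 fell, 1 rose and 9 were not called (52.6% called, beside 8.2% of all genes). The list's median was -0.25, with a negative change in 18. HMGCS1, which makes the precursor of mevalonate, read 7.85 and 7.70 without and 6.63 and 6.83 with doxycycline, a 2.06-fold fall (-1.05, SE 0.0972, limma adjusted p = 0.00353). INSIG1, which retains the sterol sensor SCAP in the endoplasmic reticulum, read 8.66 and 8.57 against 7.70 and 7.77 (-0.88, SE 0.0763, limma adjusted p = 0.00288). MSMO1, a sterol demethylase, read 9.19 and 9.08 against 8.38 and 8.43 (-0.73, SE 0.0765, limma adjusted p = 0.00473). In all 3 the groups did not overlap, and the calls held with any 1 array left out. A lack of overlap was seen in 59.8% of all genes tested, so it says little here. The sterol carrier STARD4 (-0.82) and the enzymes IDI1 (-0.62), CYP51A1 (-0.61), SC5D (-0.46), SQLE (-0.46) and DHCR7 (-0.36) were called lower as well. IDI1 lost its call without control replicate 2 (limma adjusted p = 0.0510). PMVK, phosphomevalonate kinase, was called in the other direction, from 6.79 and 6.73 to 7.12 and 7.32 (0.46). Enzymes not called included FDPS (-0.25), LSS (-0.19), NSDHL (-0.13), MVK (-0.09), MVD (-0.07) and EBP (-0.05). The number called lower was 4, 4, 6 and 8 without control 1, control 2, doxycycline 1 and doxycycline 2. The regulator SREBF2 (-0.12) was not called. A sterol-response motif, TCACNCCAC on either strand, was in 0 of the 8 called lower members with a promoter entry and in 310 of all 35116 promoters (0.883%), which says only that these letters are not in those windows. In fatty acid synthesis, 2 of 15 tested genes fell (13.3%, beside 8.2% of all genes), SCD (-0.41) and ELOVL5 (-0.43). Both lost the call in each fit with 1 array left out.

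**Figure D3:**
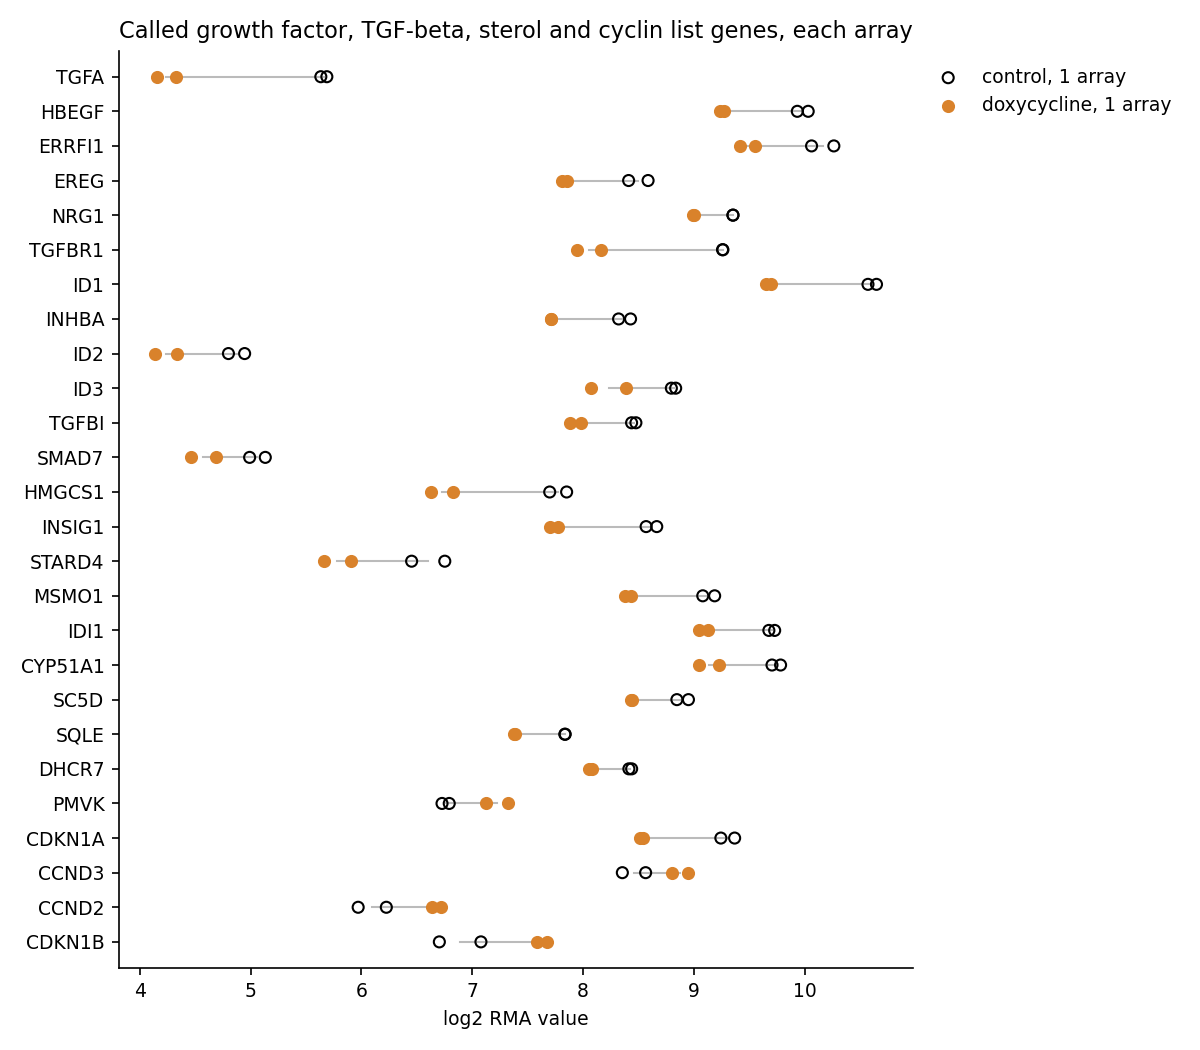
Each circle is 1 array (x axis, log2 RMA value), open for control and filled for doxycycline, with a grey line joining the group means, for called members of the EGF ligand, TGF-beta, cholesterol and cyclin lists. Rows run from TGFA to CDKN1B, and filled circles lie to the right only for PMVK, CCND3, CCND2 and CDKN1B.

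Genes induced by low oxygen or nutrient stress fell in part. NDRG1, a hypoxia-induced gene, read 9.11 and 9.81 without and 8.30 on both arrays with doxycycline (-1.16, SE 0.201, limma adjusted p = 0.0207). Its control replicates were 0.7 log2 units apart, and all 5 other tested probe sets were called lower, from -1.66 to -1.02. DDIT4, an inhibitor of mTORC1, read 8.46 and 8.88 against 7.45 and 7.61, a 2.2-fold fall (-1.14, SE 0.140, limma adjusted p = 0.00774). HK2, which encodes the inducible hexokinase, read 9.68 and 9.50 against 8.86 and 8.87 (-0.73, SE 0.0841, limma adjusted p = 0.00633). DDIT4 and HK2 kept their calls with any 1 array left out. In the hypoxia and glycolysis list 6 of 28 tested members fell and 0 rose (21.4%, beside 8.2% of all genes), with a median of -0.19. The rest of the called were the regulators of glycolysis PFKFB4 (-0.64), PFKFB3 (-0.53) and PDK1 (-0.40), and ANKRD37 (-0.57). PFKFB3 and PFKFB4 lost their calls without control replicate 2 or doxycycline replicate 1 (adjusted p up to 0.0835 and 0.0785). The glycolytic enzymes LDHA (-0.06), PGK1 (-0.06), ENO1 (0.01) and ALDOA (-0.14), and VEGFA (-0.24), were not called. Of the 25 ATF4-linked genes tested 5 fell and 0 rose (20%, beside 8.2% of all genes), with a median of -0.08. They were DDIT4, MTHFD2 (-0.53), DDIT3 (-0.50), XPOT (-0.40) and CBS (-0.36). The amino acid synthesis enzymes ASNS (-0.08), PHGDH (0.10) and PSAT1 (-0.26) were not called. Between 1 and 3 of the ATF4 list were called with 1 array left out.

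Of 15 tested genes of the cyclin, CDK4/6 and CDK inhibitor list, 3 rose, 1 fell and 11 were not called. The share called was 26.7%, beside 8.2% of all genes, and the list's median was -0.02. CDKN1A, which encodes the CDK inhibitor p21, read 9.24 and 9.37 without and 8.54 and 8.51 with doxycycline (-0.78, SE 0.0775, limma adjusted p = 0.00403). CDKN1B, which encodes p27, read 7.08 and 6.70 against 7.59 and 7.68, a 1.67-fold rise (0.74, SE 0.125, limma adjusted p = 0.0195). CCND2 read 5.97 and 6.22 against 6.64 and 6.72 (0.58, SE 0.0997, limma adjusted p = 0.0204), and CCND3 rose by 0.41. The CDKN1A call held with any 1 array left out. That of CDKN1B was lost without control replicate 2 (adjusted p = 0.0609), that of CCND2 without control replicate 1 or doxycycline replicate 2 (up to 0.0641) and that of CCND3 in each such fit (up to 0.184). CCND1 (-0.11), CDK4 (-0.17) and CDK6 (-0.24) were not called. Of 32 mitosis genes, all tested, 0 were called by limma; 4 were higher and 0 lower at the unadjusted threshold, and the fits with 1 array left out called 0 too. MKI67 (-0.03), CDK1 (-0.05), CCNB1 (0.02), TOP2A (0.02) and PLK1 (0.20) were among them, and the list's median was 0.08. In DNA replication 1 of 31 fell, MCM10 (-0.55), and 1 rose, CDC7 (0.41), with a median of 0.07 (6.45% called, beside 8.2% of all genes). MCM10 lost its call without control replicate 2 (adjusted p = 0.0515) and CDC7 in each fit (up to 0.165).

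In the BCL2 family 2 of 15 tested genes were called, in opposite directions, and both held with any 1 array left out. BIK, a pro-apoptotic BH3-only protein, read 6.90 and 6.41 without and 7.99 and 7.76 with doxycycline, a 2.33-fold rise (1.22, SE 0.162, limma adjusted p = 0.0102). A further probe set of BIK rose by 1.22 as well, from 5.90 and 5.72 to 6.98 and 7.09, while the third gave 0.14 (limma adjusted p = 0.464). The other called member was BCL2A1, given above. The share of this family called was 13.3%, beside 8.2% of all genes. MCL1 (-0.20), BCL2 (0.05), BCL2L1 (0.24), BCL2L11 (0.25) and BBC3 (0.30) were not called. Of 19 p53 targets tested, RRM2B and CDKN1A fell and TP53I3 rose by 0.38 (15.8% called, beside 8.2% of all genes). RRM2B, a ribonucleotide reductase subunit, fell by 1.31 from 7.20 and 7.41, but its other 2 tested probe sets gave -0.17 and -0.15 and were not called. TP53I3 lost its call in each fit with 1 array left out (adjusted p up to 0.113).

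Secreted proteases and genes linked to brain metastasis moved both ways. ADAMTS1, a versican-cleaving protease, read 7.05 and 7.06 without and 6.25 and 6.23 with doxycycline (-0.82, SE 0.0697, limma adjusted p = 0.00271). ADAMTS6 fell by 0.69 from 10.44 and 10.39. MMP9, a gelatinase, fell by 0.68 from 5.31 and 5.47 and lost its call without control replicate 2 (adjusted p = 0.0622). PLAT, tissue plasminogen activator (0.42), and the inhibitors TIMP3 (0.37) and TIMP2 (0.31) rose; none of these 3 was called with any 1 array left out. Of 16 tested genes of this list 3 fell and 3 rose (37.5%, beside 8.2% of all genes), with a median of -0.03. MMP1 (-0.18), PLAU (-0.27) and MMP14 (0.10) were not called. ST6GALNAC5, a sialyltransferase known for passage of breast cancer cells into the brain, read 6.32 and 6.22 against 7.03 and 7.09, a 1.73-fold rise (0.79, SE 0.0755, limma adjusted p = 0.00385). All 4 of its other tested probe sets had positive changes, from 0.28 to 0.86. Of 19 tested genes of the brain-metastasis list, ST6GALNAC5 and RGCC (0.57) rose and CSF3, HBEGF and EREG fell. The share called was 26.3%, beside 8.2% of all genes, and the list's median was -0.09. L1CAM (0.01), PCDH7 (-0.19) and GJA1 (0.29) were not called.

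The largest falls outside these lists were in genes of varied function. BTF3L4, a relative of a basal transcription factor, read 9.18 and 9.10 without and 7.50 and 7.33 with doxycycline, a 3.31-fold fall (-1.73, SE 0.0859, limma adjusted p = 0.000546), and its other 2 probe sets gave -1.90 and -1.35. PURA, a purine-rich element binding protein, read 9.59 and 9.50 against 7.99 and 7.98 (-1.56, SE 0.0731, limma adjusted p = 0.000431), with -1.19 and -1.11 for its other probe sets. COXFA4L3 read 6.67 and 6.89 against 5.03 and 5.21 (-1.66), and SGMS2, a sphingomyelin synthase, 7.55 and 7.59 against 6.03 and 6.12 (-1.49). All 4 had groups more than 1 log2 unit apart and kept their calls with any 1 array left out. Further genes past 2-fold, chosen after their values were seen, were the thiamine transporter SLC19A2 (-1.41), the neuronal membrane protein SLITRK5 (-1.31), the glycosphingolipid enzyme B3GNT5 (-1.26), the transcription factor BHLHE40 (-1.23), the cyclin CCNY (-1.22), the endosomal adaptor APPL1 (-1.17) and the small GTPase RRAS2 (-1.09).

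Rises were smaller. After BIK came HSD17B2, an estradiol-oxidising dehydrogenase, from 4.55 and 4.40 to 5.29 and 5.63 (0.98, SE 0.122, limma adjusted p = 0.00817), which lost its call without control replicate 2 (adjusted p = 0.0550). AOPEP, an aminopeptidase, went from 7.13 and 6.74 to 7.80 and 7.82 (0.87, SE 0.127, limma adjusted p = 0.0132), and SLC43A1, an amino acid transporter, from 5.84 and 5.97 to 6.85 and 6.65 (0.84, SE 0.0944, limma adjusted p = 0.00578). ASB9 (0.85), CPED1 (0.76), HSPG2 (0.74), STMN3 (0.73) and REPS2 (0.73) completed the 12 largest rises with IL18, ST6GALNAC5 and CDKN1B. AOPEP, SLC43A1, CPED1 and REPS2 kept their calls with any 1 array left out. ASB9 lost its call without either control array (adjusted p up to 0.0858), HSPG2 without control replicate 2 (0.0835) and STMN3 without control replicate 1 (0.0556). Among the 16 higher genes that held in every fit, others, chosen after their values were seen, were the chromatin protein HMGA2 (0.72) and the laminin-related NTN4 (0.67).

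Other probe sets of a called gene were set beside the one used. Of the 534 genes called lower, 356 had another tested probe set, and in 306 of those (86%) all pointed down; in 231 (64.9%) another was called lower. Of the 501 called higher, 282 had another, and in 185 (65.6%) all pointed up; in 83 (29.4%) another was called higher. Called higher genes also had lower signal, with a median control level of 6.58 against 7.88 for called lower genes and 6.93 for all. The part of signal level in this gap was not tested.

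**Figure D4:**
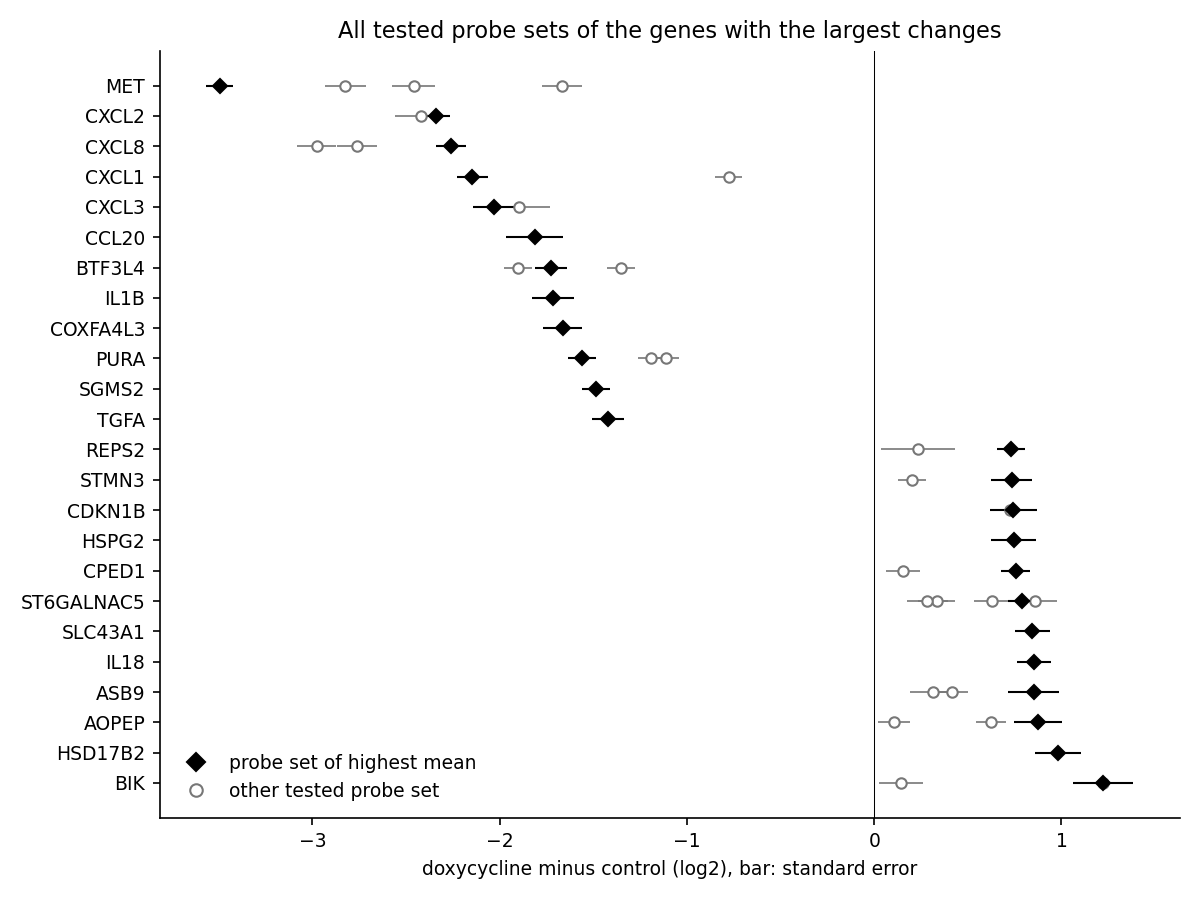
Change with doxycycline (x axis, log2) for every tested probe set of the 12 largest falls and 12 largest rises, with a diamond for the probe set of highest mean, an open circle for the others and bars of 1 SE. Every probe set of the falling genes lies left of 0, while BIK, AOPEP, CPED1, STMN3 and REPS2 each have 1 other probe set between 0.11 and 0.23.

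In the remaining lists at most 4 genes were called, beside the background of 8.2% of all genes. Of 37 mitochondrial ribosomal protein genes 1 rose, MRPS27 (0.33), and the list's median was 0.12. Of 32 nuclear oxidative phosphorylation genes 1 rose, NDUFV1 (0.31), and of 32 cytosolic ribosomal proteins 1, RPL7 (0.54). Interferon-stimulated genes had 2 of 19 higher, IFI35 (0.43) and IFIT3 (0.43), and MHC class I presentation 2 of 13, the immunoproteasome subunit PSMB9 (0.55) and ERAP2 (0.52). Each of these 7 calls was lost in at least 2 of the 4 fits with 1 array left out. YAP and TAZ targets had 2 of 20 lower, CRIM1 (-0.74) and ANKRD1 (-0.49), with CCN1 (-0.01) and CCN2 (-0.09) not called. Epithelial junction and keratin genes had 1 of 20 lower, KRT8 (-0.33), and 1 higher, KRT80 (0.49), and mesenchymal genes 2 of 18 lower, ACTA2 (-0.73) and LOX (-0.48), and 1 higher, CNN1 (0.34). ACTA2 passed the filter through its control arrays alone, and without it 1 of 17 was lower. Chaperones of the endoplasmic reticulum had DNAJC3 (-0.90) and CALR (-0.42) lower and DNAJB9 (0.45) higher of 22. Amino acid transporters had 2 lower and 2 higher of 17 (23.5%), TNF ligands and receptors 1 lower of 15, and angiogenic factors KDR alone of 17. The acute-phase and complement list had 1 lower of 7, with a median of -0.27 and 5 lower at the unadjusted threshold. That 1 was TFPI2 (-0.71), a protease inhibitor that is not itself an acute-phase or complement gene. Of the genes named here from YAP and TAZ targets onwards, CRIM1, DNAJC3 and TFPI2 kept their calls with any 1 array left out.

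**Figure D5:**
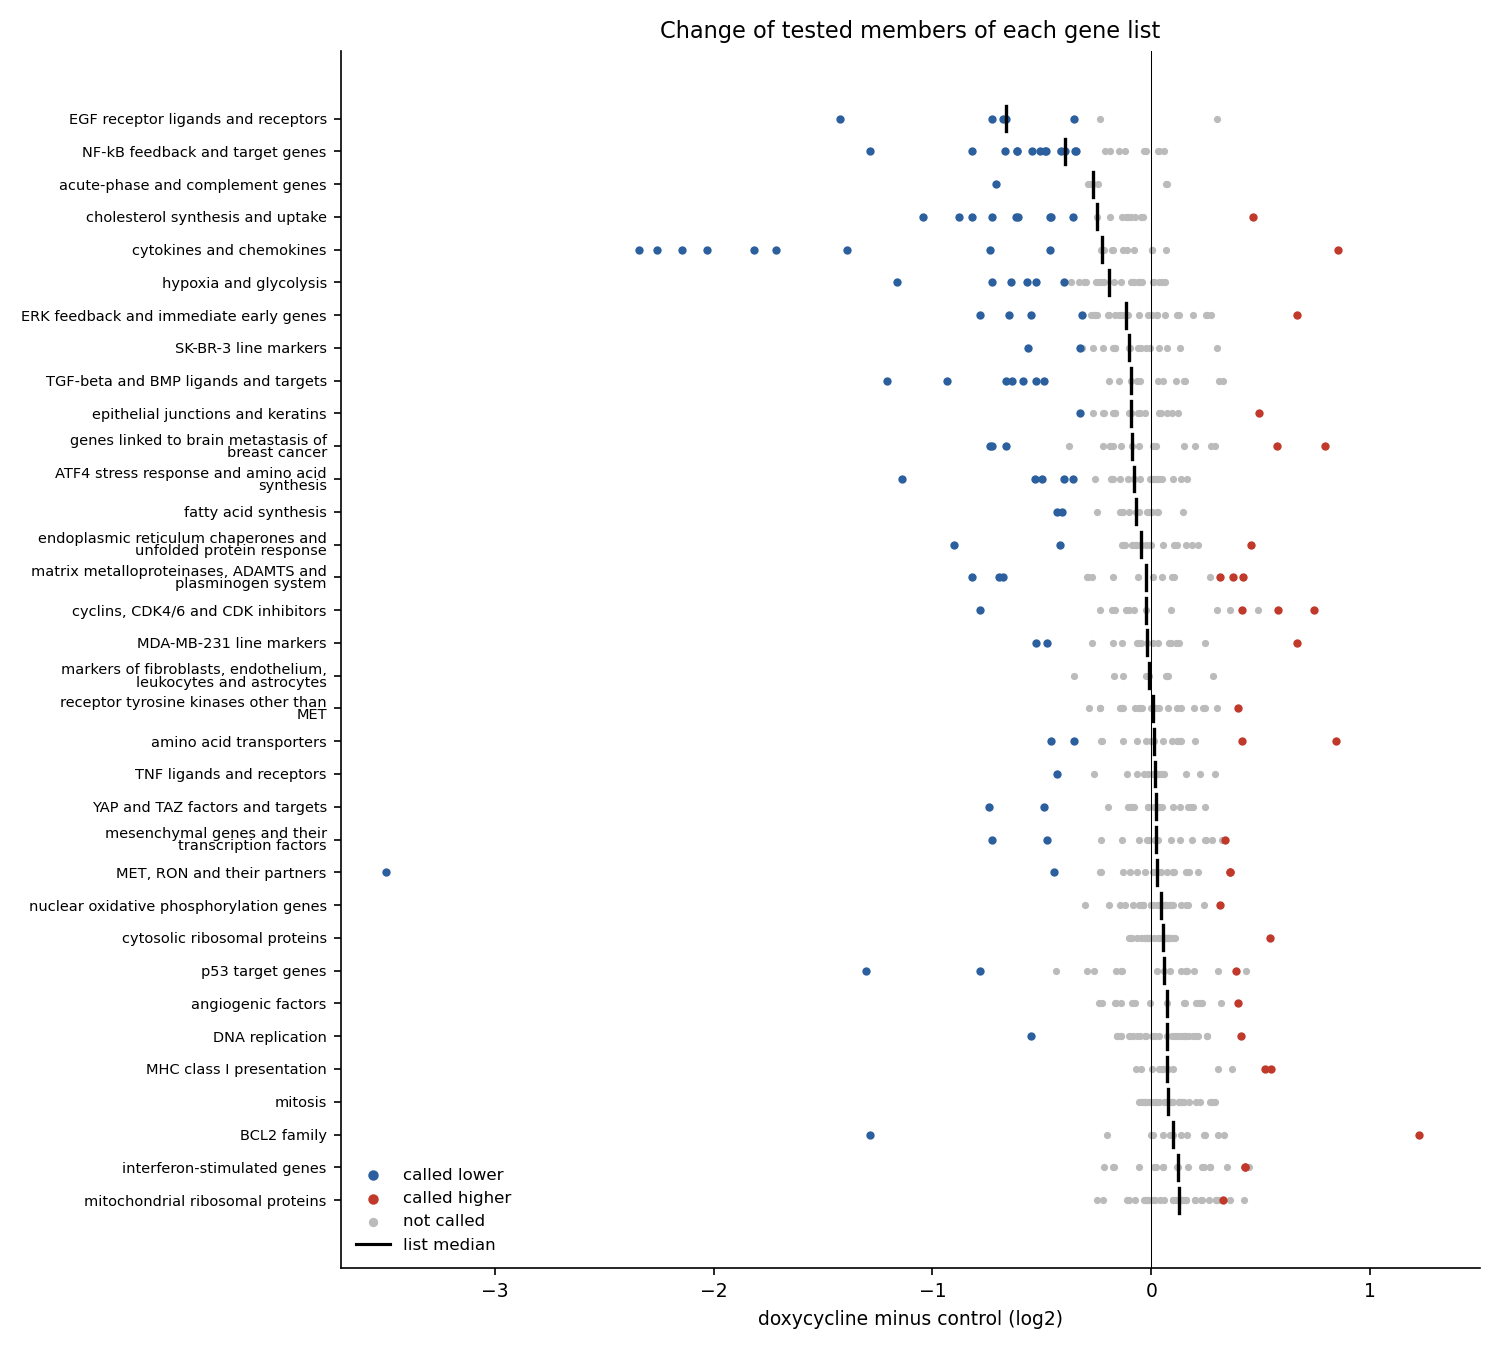
Each point is 1 tested member of a gene list (rows) at its change with doxycycline (x axis, log2), blue for called lower, red for called higher and grey for not called, with a black bar at the list median. The lists of EGF receptor ligands (median -0.66, or -0.51 without TGFA), NF-kB targets (-0.40), cholesterol synthesis (-0.25) and cytokines (-0.22) lie to the left. So does the acute-phase and complement list (-0.27), with 1 of 7 called. Mitosis (0.08) and mitochondrial ribosomal proteins (0.12) hold few or no called genes.

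Set beside the 231BrM arrays of the study, which have their own controls and carry shMet too, MET changed by -3.50 here and -3.76 there. CXCL8 changed by -2.26 here and -0.98 in 231BrM, CXCL2 by -2.34 and -1.12, and CXCL1 by -2.15 and -0.67. The tests of the difference missed the threshold for these 3 (limma adjusted p = 0.0972 for each), and over all 27782 probe sets 0 differed between the lines at an adjusted p under 0.05, with 2629 at the unadjusted threshold. One of the 231BrM doxycycline arrays, replicate 1, stands apart, with an actin excess of 3' over 5' signal of 1.24. Without it 2 probe sets differed, those of CXCL8 (difference -1.32) and CXCL1 (-1.45), both with a limma adjusted p of 0.0483, and 5026 did so at the unadjusted threshold. The second probe set of CXCL1, over all arrays, changed by -0.78 here and -0.92 in 231BrM. The larger fall of CXCL1 here thus rests on the probe set used. The other tested probe sets of CXCL8 and CXCL2 did fall more here than in 231BrM. TGFA (-1.42 here, -1.39 there) and DDIT4 (-1.14 in both) had nearly the same values. BCL2A1 changed by -1.29 here and -0.34 in 231BrM, TGFBR1 by -1.21 and -0.42, ID1 by -0.93 and -0.13, HMGCS1 by -1.05 and -0.17, EREG by -0.66 and 0.10, and BIK by 1.22 and 0.30. None of these differences passed the test, which does not show that the lines respond alike. For EREG the sign in 231BrM depended on the probe set. Its other 2 tested probe sets changed by -0.89 and -0.56 here and by -0.49 and -0.02 in 231BrM. The one at -0.56 passed the filter through its control arrays alone.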

How the data were processed

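The authors deposited log2 values made with RMA, per the submitters' processing notes, a method that corrects background, forces arrays to a common distribution (quantiles) and summarises probes. Its version, chip definition and genome build: not given in the sources used here. Quantile normalization gives arrays nearly the same distribution, so a change in total RNA per cell, or a smaller share of cells against less RNA per cell, cannot be told apart. No scanner data or detection calls were used here, and the background under low values was not measured. The 4 array medians were 4.95 to 4.97, and their number limits the precision. A change had a median standard error of 0.0805 log2 units.

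Of 49386 probe sets, 93 were controls, 1327 named several genes and 2713 were unnamed; the other 45253 name 1 gene, with 45172 symbols updated by gene ID through RefSeq (GRCh38.p14) and 81 kept. Tested were those above 4.42 (the 40th percentile of all values of the 4 arrays) on at least 2 arrays. The 4 arrays were fitted on their own in R 4.3.3 by lmFit and eBayes of limma 3.58.1, with 2 residual and 4.87 prior degrees of freedom. Tests were two-sided and adjusted by Benjamini-Hochberg over 27782 probe sets. The difference between lines was an interaction contrast over all 8 arrays. Standard errors (SE) are those of the fit.

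The named genes are MET, CXCL8, CXCL1 and IL1B, the 12 largest rises and 12 largest falls among called genes whose arrays do not overlap, up to 4 called members of each list with the smallest adjusted p, and the line markers. Other list members are given by their change only. The 35 lists, the rule and the motifs were chosen with earlier results of these data known, so no list is independent evidence of its direction. Alternatives changed the filter, the arrays fitted, the prior, the scaling, the probe set per gene, the replicate block and the arrays left out. Counts without genes that pass the filter through 1 group only were added after seeing the data. On simulated data for 27782 probe sets, 93% of changes of 0.5 and 100% of changes of 1.0 log2 units were recovered, and 15 unchanged probe sets were called. In it, 100 probe sets were changed by each size, with independent normal noise set by the standard errors of the fit. Effects shared across an array or culture were not simulated, so these shares can overstate recovery in the real data.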

Additional observations from a re-analysis of the deposited data

Results flagged for a closer look

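Probe sets outside the 1-gene set also carried signal. Of 1488 unnamed probe sets that passed the same filter, 146 were called at a limma adjusted p under 0.05 (9.81%), 46 higher and 100 lower. Of 713 that name several genes, 52 were called (7.29%), 22 higher and 30 lower. These shares lie beside 9.01% for probe sets of 1 gene in the same adjustment. The largest falls were -1.80 for an unnamed probe set and -1.74 for 1 naming several genes.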

How the results depend on the processing

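MET fell in every alternative, with log2 changes of -3.52 to -3.47, and -1.88 with the mean of all its probe sets. The count of probe sets called was 449 with all 8 arrays in the fit and 4577 with an intensity trend in the prior, and ranged from 427 to 1557 with 1 array left out. For genes it was 215, 2005 and 173 to 566, and 1634 with the mean of all probe sets of a gene. The share of called genes that were lower was 51.6%, against 79.1% with all 8 arrays, and under 50% in 4 alternatives: 47.4% with the trend, 48.9% with median centring, 47.2% with a second quantile step and 49.6% with the probe set chosen before the filter. With the replicate number as a block, 1964 probe sets and 749 genes were called; the numbers share no more than a number, since deviations of same-numbered arrays correlated at -0.03. The line difference went from 0 to 2 probe sets without the 231BrM doxycycline replicate 1, and was 0 with the block. Filtering, array weights, median centring and a second quantile step kept counts within 1.5 times. So which direction had more called genes depended on these settings; no named gene's change reversed its sign. Of the 92 named genes, 45 missed the threshold with all 8 arrays, 8 of 86 with the mean of probe sets and 6 with the block. Signal level limits the lowest genes: 33 called lower and 22 called higher genes had 1 group mean under 4.42.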

Other observations

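The direction of a call varied with signal level. With genes cut into 5 groups by mean level, in the 2525 with the highest (8.85 to 13.3) 22 were called higher and 116 lower, and in the 2523 in the middle (6.35 to 7.54) 181 higher and 113 lower. In the 2525 with the lowest (4.20 to 5.13) the counts were 62 and 70. Falls past 2-fold were spread over the levels, with 1, 8, 10, 13 and 4 from the lowest to the highest group.

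Counted by any called probe set, 1001 genes had one that was lower and 842 one that was higher, and 15 genes had both. Among these, named after their values were seen, AKT2 had 3 probe sets called higher (0.57, 0.41 and 0.42) and 1 called lower (-0.52). Its probe set of highest mean gave 0.11 and was not called. CUX1 had one called higher (0.44) and one called lower (-0.53). Which transcripts these probe sets read was not analysed here.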
